A study of Mus musculus with 2 samples.

Results

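Piezo1 and Piezo2 are the 2 Piezo genes of the mouse, taken by their symbols from the 32285 genes in the files. Each encodes a very large membrane protein that assembles as a trimer into a calcium-permeable cation channel opened by membrane tension. PIEZO1 is known as a sensor of blood flow in endothelial cells, where its opening raises cell calcium and where it is needed for vessels to form. PIEZO2 is known best as the touch and body-position channel of sensory neurons and Merkel cells. In the mm10 build, GENCODE vM21 places Piezo1 (ENSMUSG00000014444) on the minus strand of chromosome 8 at 122481698 to 122551329, a gene of 69.6 kb with 9 annotated transcripts. Piezo2 (ENSMUSG00000041482) lies on the minus strand of chromosome 18 at 63010213 to 63387183, 377 kb with 15 annotated transcripts.

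The cells came from retinas of mice at postnatal day 6, a stage at which vessels are still spreading over the retina, and were enriched with beads against CD31, an endothelial surface protein. The tested library, labelled Alk1 ECKO, carries Alk1 f/f together with Cdh5 CreERT2, a tamoxifen-inducible recombinase driven by the promoter of the endothelial cadherin gene Cdh5. The control library carries the same Alk1 f/f alleles without the recombinase. Alk1, whose gene symbol is Acvrl1, is an endothelial receptor for BMP9 and BMP10, and its loss in people causes hereditary hemorrhagic telangiectasia with arteriovenous malformations. From its title, the series asks about PIEZO1 in such malformations. The sources used here do not state the number of animals per library, the tamoxifen schedule or whether control pups received tamoxifen.

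Each genotype had 1 library, so no test of a genotype difference was possible, and all 95% intervals below cover counting error only, not differences between mice. UMIs (unique molecular identifiers, 1 per captured RNA molecule) totalled 62728605 over the 5308 barcodes of Alk1 ECKO and 54800465 over the 8739 of control. After filtering, 4093 Alk1 ECKO and 7409 control cells were retained, and 14 of their barcodes occurred in both libraries. Classes were named from marker lists, each name standing for cells like that type. Clustering left 1271 Alk1 ECKO and 313 control cells as endothelial, all 12 endothelial markers being detected in each library, at a summed 7187 CPM (UMIs scaled to a total of 1000000) in Alk1 ECKO and 8998 CPM in control cells. Acvrl1 itself stood at 118 CPM in Alk1 ECKO and 115 CPM in control endothelial cells. The labels do not state which part of the gene the floxed allele removes, and a 3′ tag outside that part does not check the genotype. A further 1245 Alk1 ECKO and 3 control barcodes carried endothelial, microglia or macrophage and haemoglobin transcripts but almost no mitochondrial ones and were set aside.

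Both genes were detected mainly in endothelial cells. Of the Piezo1 UMIs in retained cells, 81.4% (1879 of 2309) lay in endothelial cells of the Alk1 ECKO library and 94.7% (693 of 732) in those of the control library. For Piezo2 the shares were 83.7% (4705 of 5620) in Alk1 ECKO and 98.3% (1237 of 1258) in control. Most of the remainder in Alk1 ECKO, 14.8% of the Piezo1 and 15.1% of the Piezo2 UMIs, lay in the clusters set aside, chiefly in 92 cells with both endothelial and mural transcripts, at 44.8 CPM for Piezo1 and 117 CPM for Piezo2. All other classes together held 3.81% of the Alk1 ECKO and 3.83% of the control Piezo1 UMIs, and 1.21% of the Alk1 ECKO and 1.35% of the control Piezo2 UMIs.

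**Figure D1:**
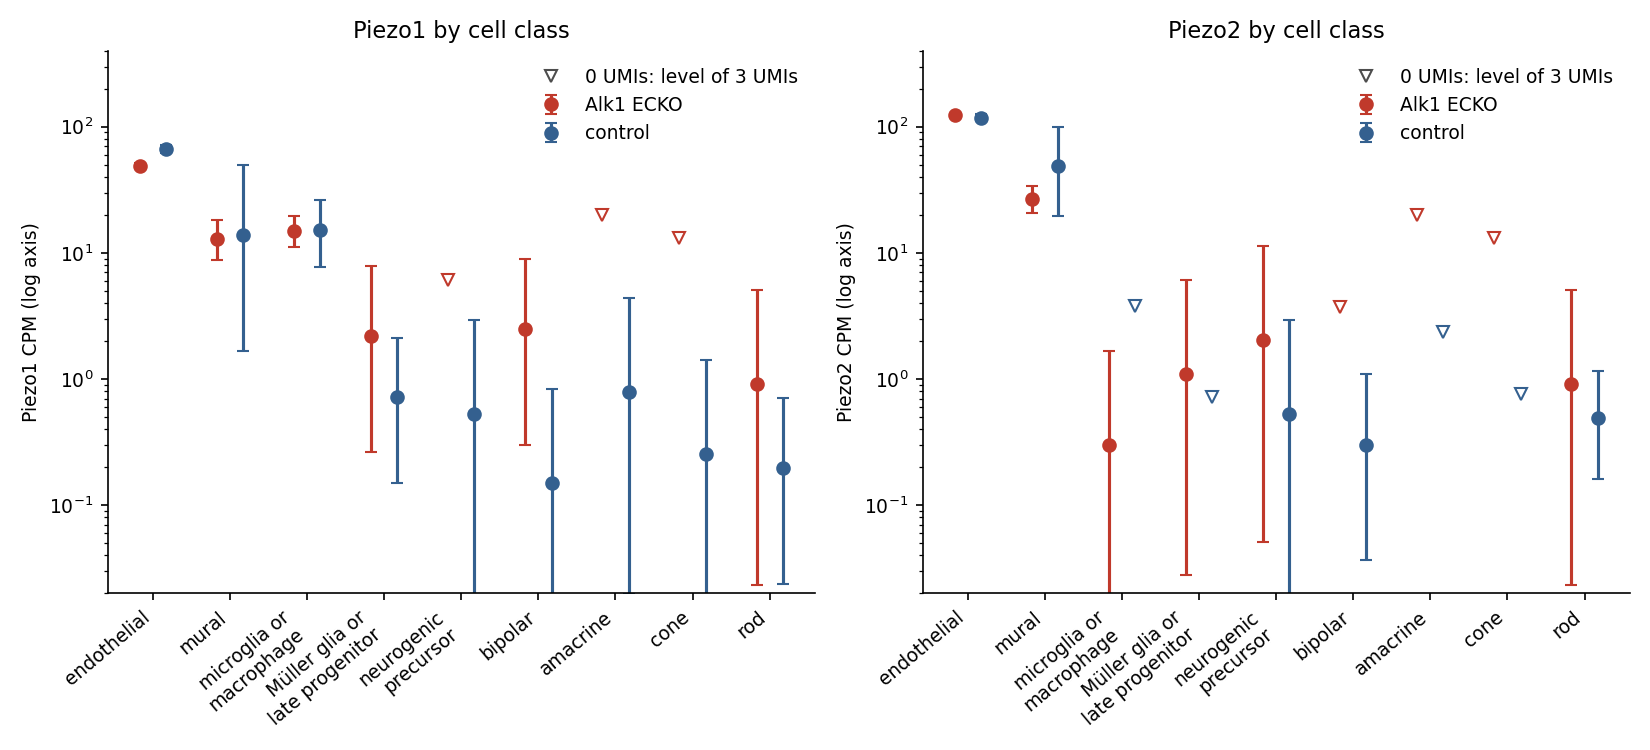
Piezo1 (left) and Piezo2 (right) levels in CPM on a log axis in each cell class, summed over the cells of the Alk1 ECKO library (red) and the control library (blue), with exact 95% Poisson intervals; open triangles stand at the level of 3 UMIs where none was counted. Endothelial cells were highest for both genes, mural cells had both, and microglia or macrophages had Piezo1 at 14.9 CPM in Alk1 ECKO and 15.1 CPM in control with 1 Piezo2 UMI in all.

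Outside the endothelium the 2 genes parted. Microglia or macrophages had Piezo1 at 14.9 CPM (95% interval 11.1 to 19.7, 50 UMIs in 302 cells) in Alk1 ECKO and 15.1 CPM (7.79 to 26.3, 12 UMIs in 76 cells) in control, close to each other and well below endothelial cells. The same cells had 1 Piezo2 UMI in Alk1 ECKO and 0 in control, where 3 UMIs would have been 3.77 CPM. Mural cells, the contractile and pericyte-like cells around vessels, had both genes: Piezo1 at 12.9 CPM (8.79 to 18.4, 31 UMIs) and Piezo2 at 26.7 CPM (20.6 to 34.1, 64 UMIs) in 149 Alk1 ECKO cells. The 11 control mural cells held 2 Piezo1 and 7 Piezo2 UMIs, too few for a comparison. Both genes were found in 15 of the 149 Alk1 ECKO mural cells.

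Few Piezo UMIs lay in neural and glial cells. Over the photoreceptor, bipolar, amacrine, neurogenic and Müller glia or late progenitor classes, 865 Alk1 ECKO cells held 5 Piezo1 UMIs (1.36 CPM) and 5004 control cells held 9 (0.321 CPM). For Piezo2 these cells held 3 UMIs in Alk1 ECKO (0.814 CPM) and 8 in control (0.286 CPM). Among control rods, Piezo1 stood at 19.4 and Piezo2 at 48.5 UMIs per 1000 UMIs of Cldn5, an abundant endothelial tight-junction gene, against 22.2 for Piezo1 and 39.6 for Piezo2 in control endothelial cells. These rod values rest on 2 Piezo1 and 5 Piezo2 UMIs. Over all neural and glial classes the proportions were 116 for Piezo1 and 69.8 for Piezo2 per 1000 Cldn5 UMIs in Alk1 ECKO, and 41.7 for Piezo1 and 37.0 for Piezo2 in control, so the Piezo1 proportion stood above that of endothelial cells in each library, on 5 UMIs in Alk1 ECKO and 9 in control. Whether these UMIs are free RNA was not tested. Astrocyte-like cells, 17 in Alk1 ECKO and 21 in control, had 0 UMIs of either gene, which was not informative at a level of 3 UMIs of 17.9 CPM in Alk1 ECKO and 13.6 CPM in control. Microglia or macrophages had 1282 Piezo1 UMIs per 1000 Cldn5 UMIs in Alk1 ECKO cells, where endothelial cells had 22.4. Alk1 ECKO mural cells had 1550 Piezo1 and 3200 Piezo2 UMIs per 1000 Cldn5 UMIs, against 22.4 for Piezo1 and 56.1 for Piezo2 in Alk1 ECKO endothelial cells. Cells thinned to 5000 UMIs gave a Piezo1 UMI in 6.64% of 211 Alk1 ECKO and 1.85% of 54 control microglia or macrophages, set beside 0.741% of 270 Alk1 ECKO and 0.238% of 2100 control neural and glial cells. For Piezo2, 9.29% of 140 Alk1 ECKO mural cells had a UMI at that depth, set beside 0.370% of the Alk1 ECKO and 0.0476% of the control neural and glial cells. Mural cells also carried a summed 622 CPM in Alk1 ECKO and 547 CPM in control of the 12 endothelial markers, and the part of this RNA in the mural values was not tested beyond the Cldn5 proportion.

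Across the endothelial cells as a whole, Piezo1 was lower and Piezo2 nearly level in Alk1 ECKO. Piezo1 stood at 49.2 CPM (47.0 to 51.4, 1879 UMIs) in Alk1 ECKO and 66.2 CPM (61.4 to 71.3, 693 UMIs) in control, a log2 ratio of -0.43 (-0.56 to -0.30). Piezo2 stood at 123 CPM (120 to 127, 4705 UMIs) in Alk1 ECKO and 118 CPM (112 to 125, 1237 UMIs) in control, a log2 ratio of 0.058 (-0.032 to 0.15). Piezo1 met the rule for a lower gene, a log2 ratio of -0.32 or less with an interval that excludes 0, as did 35.0% of the 12528 measured genes, while 9.28% were higher by 0.32 or more. Piezo2 met neither rule.

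The median measured gene had a log2 ratio of -0.22, and this shift bears on both genes. Relative to that median Piezo1 stood at -0.21 (-0.34 to -0.082) and Piezo2 at 0.28 (0.19 to 0.37), so neither gene lay 0.32 or more from it, while 18.7% of genes then were lower and 21.1% higher by the same rule. Among all measured genes, 32.2% had a lower ratio than Piezo1 and 72.1% a lower ratio than Piezo2. Averaging the CPM of single cells instead of summing their UMIs put Piezo1 at -0.18. The RNA of other cells also differed between these endothelial sums, with the 12 mural markers, all detected in each library, at 111 CPM in Alk1 ECKO and 38.2 CPM in control. Rod markers, 11 of 12 detected in Alk1 ECKO and 12 of 12 in control, stood at 11.7 CPM in Alk1 ECKO and 85.8 CPM in control, and the 8 erythroid markers at 348 CPM in Alk1 ECKO and 220 CPM in control. Their part in the ratios was not tested. PIEZO1 and PIEZO2 protein were not measured.

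The 2 genes were also set against each other within the same cells. A 3′ library is made to give 1 tag per molecule, but whether intronic reads were counted is not stated, and the capture of each gene was not tested, so the ratio is one of UMIs and not of molecules. Endothelial cells held 2.50 Piezo2 UMIs per Piezo1 UMI (2.37 to 2.64) in Alk1 ECKO and 1.78 (1.63 to 1.96) in control. The intervals do not overlap, and depth cancels from this ratio. Weighting the sub-clusters alike in both libraries gave an Alk1 ECKO over control log2 ratio of -0.37 for Piezo1 and 0.13 for Piezo2, so each value moved up and the distance between them was about as large. This weighting does not make the libraries alike, since the makeup of single sub-clusters still differed between them in the finer split below. Leaving out the cycling sub-clusters moved the Piezo2 ratio to 0.29.

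Endothelial cells were split into 7 sub-clusters without using either Piezo gene. The first is tip-like, with Esm1, Angpt2, Kcne3 and Apln, genes of the cells that lead vascular sprouts (199 Alk1 ECKO and 25 control cells). The second is G2/M-like, with Ube2c, Cenpf and Top2a of dividing cells (242 Alk1 ECKO and 76 control cells). The third is led by Slc6a6 and Apod and contains arterial transcripts such as Efnb2 and Gja4 (256 Alk1 ECKO and 24 control cells). The fourth is led by Apod and Rarres1 (256 Alk1 ECKO and 11 control cells). The fifth is barrier capillary-like, with Mfsd2a, Slco1c1 and Spock2 of the blood-retina barrier, led by Aqp1 and Six3 (57 Alk1 ECKO and 171 control cells). The sixth joins Rgs5 and Higd1b, mural genes, to mitotic genes (81 Alk1 ECKO and 6 control cells). The last is led by the arterial gene Mgp and holds Sema3g, Bmx and the MHC class II genes Cd74 and H2-Ab1, in 180 Alk1 ECKO cells and 0 control cells, at a median of 2492 UMIs per cell. Levels are given where a library had at least 20 cells of a sub-cluster.

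Piezo1 varied less than Piezo2 among these states. In Alk1 ECKO it stood at 67.6 CPM in barrier capillary-like cells, 62.7 CPM in the Mgp and MHC class II cells and 61.0 CPM in the Slc6a6 and Apod cells, and these neighbours did not differ beyond counting error. G2/M-like cells came next at 46.4 CPM, below the Slc6a6 and Apod cells by a log2 of -0.39 (-0.55 to -0.23). Tip-like cells at 43.8 CPM and the Apod and Rarres1 cells at 43.2 CPM were not separable from the G2/M-like cells or from each other. The Rgs5 cells were lowest at 26.6 CPM (19.7 to 35.0), and they also had the most mural marker RNA of the endothelial sub-clusters in Alk1 ECKO, 546 CPM. In the control library the Slc6a6 and Apod cells were highest at 90.6 CPM (68.8 to 117), followed by barrier capillary-like cells at 69.9 CPM, G2/M-like cells at 61.0 CPM and tip-like cells at 58.2 CPM. No neighbouring pair of these differed beyond counting error, and the first exceeded the last by a log2 of 0.64 (0.049 to 1.24). Of the 58 Piezo1 UMIs in the control Slc6a6 and Apod cells, 29 lay in 3 cells.

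Piezo2 varied widely, with its top in tip-like cells. In Alk1 ECKO it stood at 169 CPM (160 to 178) in tip-like cells, above the 121 CPM of the Slc6a6 and Apod cells and the 120 CPM of the G2/M-like cells, which did not differ from each other. The Apod and Rarres1 cells at 87.0 CPM, barrier capillary-like cells at 75.4 CPM and Rgs5 cells at 66.4 CPM followed, with no difference between neighbours beyond counting error. The Mgp and MHC class II cells were lowest at 32.8 CPM (20.8 to 49.1), below tip-like cells by a log2 of 2.37 (1.78 to 3.03). They also held the most microglia or macrophage marker RNA of the Alk1 ECKO sub-clusters, 360 CPM with 10 of 12 markers detected, and 187 CPM of mural markers, and the part of this RNA in their levels was not tested. In the control library tip-like cells at 141 CPM (116 to 171) and G2/M-like cells at 135 CPM were not separable, barrier capillary-like cells stood lower at 107 CPM, and the Slc6a6 and Apod cells were lowest at 62.5 CPM (44.6 to 85.1). The tip-like sub-cluster thus had the highest Piezo2 level in each library, in control without being separable from G2/M-like cells. Its makeup was unlike, since 147 of 199 Alk1 ECKO but 5 of 25 control cells stayed tip-like in the finer split below. Another 35 in Alk1 ECKO and 20 in control fell in a sub-cluster of cycling cells with Mcm5, Mcm3 and Hells. The Slc6a6 and Apod cells were in the upper part of the order in Alk1 ECKO and last in control. Of the 40 Piezo2 UMIs in the control Slc6a6 and Apod cells, 30 lay in 4 cells.

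**Figure D2:**
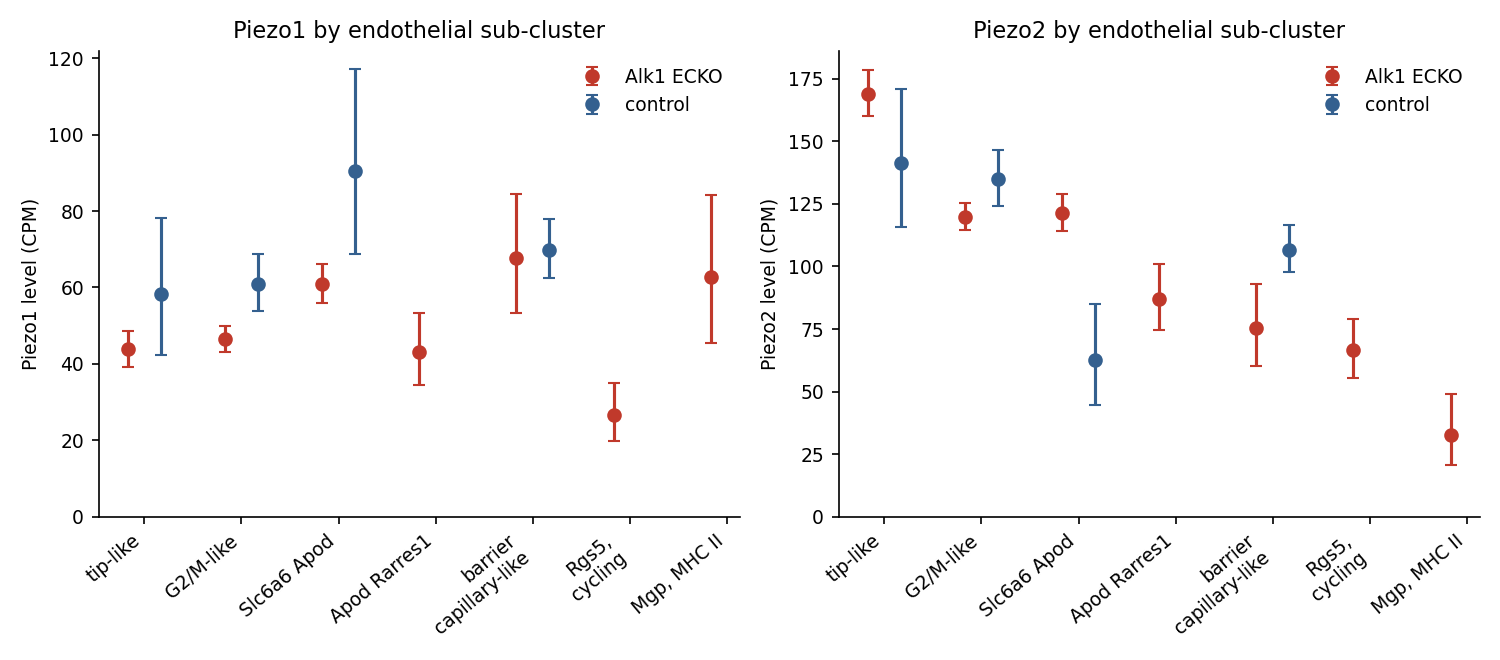
Piezo1 (left) and Piezo2 (right) levels in CPM in each endothelial sub-cluster with at least 20 cells of a library, Alk1 ECKO in red and control in blue, with exact 95% Poisson intervals. Piezo2 spans 32.8 to 169 CPM in Alk1 ECKO, while Piezo1 spans 26.6 to 67.6 CPM.

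The Piezo2 to Piezo1 balance was highest in tip-like cells of both libraries. Tip-like cells held 3.86 Piezo2 UMIs per Piezo1 UMI (3.42 to 4.36) in Alk1 ECKO and 2.43 (1.70 to 3.54) in control. G2/M-like cells held 2.58 in Alk1 ECKO and 2.22 in control, the control value lying within the interval of control tip-like cells. In the finer split below, 147 of 199 Alk1 ECKO but 5 of 25 control tip-like cells stayed tip-like. Of the 4 sub-clusters with 20 cells in each library, the Slc6a6 and Apod cells had the widest gap, with 1.99 (1.80 to 2.21) in Alk1 ECKO and 0.690 (0.449 to 1.05) in control. The cells under this name differed between libraries, since 20 of 24 in control and 25 of 256 in Alk1 ECKO were arterial-like in the finer split below. Of the 40 control Piezo2 UMIs in this sub-cluster, 30 lay in 4 cells. Barrier capillary-like cells held 1.12 (0.812 to 1.53) in Alk1 ECKO and 1.53 (1.33 to 1.76) in control. The Mgp and MHC class II cells of Alk1 ECKO held 0.523 (0.301 to 0.885), with more Piezo1 than Piezo2 UMIs. A finer split into 11 sub-clusters isolated an arterial-like one with Mgp, Bmx, Gja4, Fbln5 and Vegfc, of 25 Alk1 ECKO and 22 control cells, and its balance was 0.465 (0.259 to 0.808) in Alk1 ECKO and 0.474 (0.254 to 0.851) in control. In these arterial-like cells Piezo1 stood at 93.4 CPM in Alk1 ECKO and 71.6 CPM in control, and Piezo2 at 43.4 CPM in Alk1 ECKO and 33.9 CPM in control. The Alk1 ECKO Piezo2 value rests on 20 UMIs in 6 cells, with 13 in 1 cell. The control value rests on 18 UMIs in 5 cells, with up to 8 in 1 cell. The intervals of the balance count UMIs and do not cover such spread between cells. The finer tip-like sub-cluster, of 147 Alk1 ECKO cells, held 4.28 Piezo2 UMIs per Piezo1 UMI, with Piezo2 at 186 CPM and Piezo1 at 43.4 CPM. Finer barrier capillary-like cells held 1.56 (1.07 to 2.29) in Alk1 ECKO and 1.58 (1.36 to 1.83) in control. The sub-cluster with Mcm5, Mcm3 and Hells held 2.21 (1.69 to 2.91) in Alk1 ECKO and 2.34 (1.65 to 3.37) in control. A G2/M-like one led by Hist1h1b held 2.78 (2.43 to 3.18) in Alk1 ECKO and 2.20 (1.87 to 2.59) in control. In each of these the intervals of the libraries overlap.

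**Figure D3:**
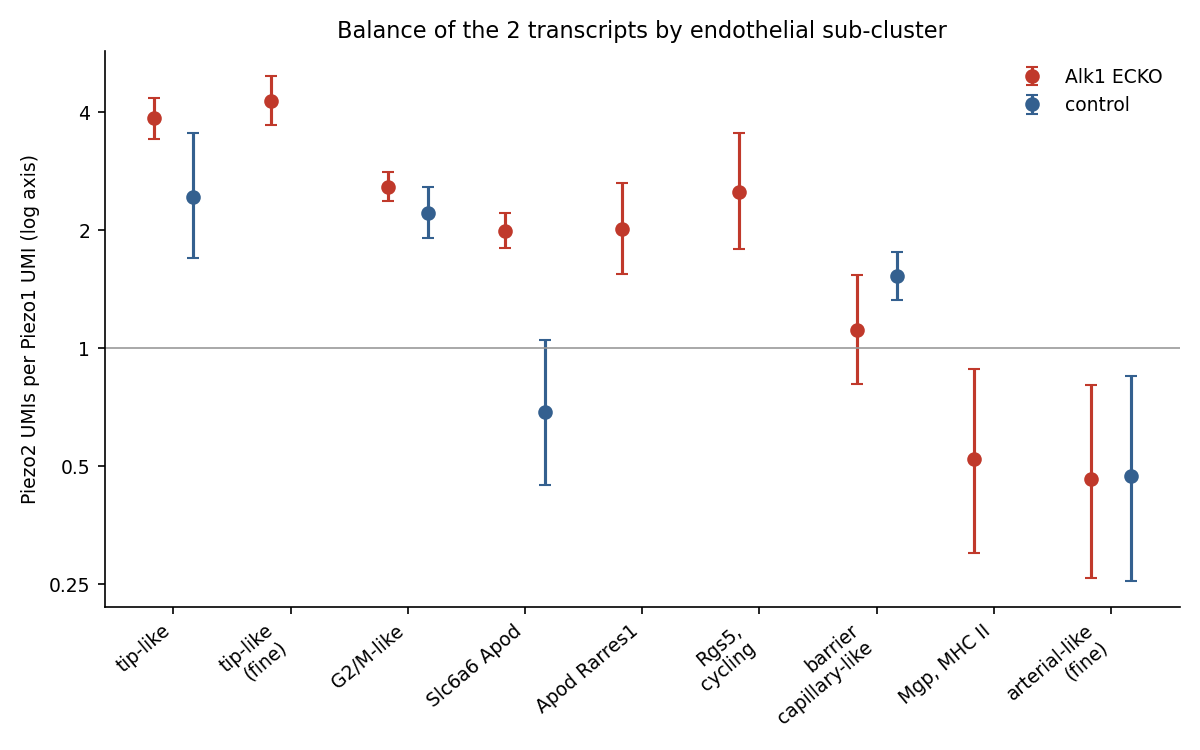
Piezo2 UMIs per Piezo1 UMI on a log axis in endothelial sub-clusters with at least 20 cells of a library, Alk1 ECKO in red and control in blue, with exact 95% binomial intervals; the line marks equal counts, and "fine" marks sub-clusters of the finer split. Tip-like cells lie at 3.86 in Alk1 ECKO and 2.43 in control, and arterial-like cells at 0.465 in Alk1 ECKO and 0.474 in control. Of the control tip-like cells, 5 of 25 were tip-like in the finer split. The arterial-like values rest on 20 Piezo2 UMIs in 6 Alk1 ECKO cells, 13 of them in 1 cell, and 18 in 5 control cells.

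Within the 4 sub-clusters that had 20 cells in each library, the Piezo1 ratio between genotypes ranged from -0.57 to -0.048. The Alk1 ECKO over control log2 ratio was -0.39 (-0.60 to -0.18) in G2/M-like cells, -0.57 (-0.96 to -0.16) in the Slc6a6 and Apod cells, -0.41 (-0.86 to 0.078) in tip-like cells and -0.048 (-0.42 to 0.31) in barrier capillary-like cells. The last 2 intervals include 0, and in the finer split barrier capillary-like cells gave 0.32 (-0.16 to 0.76) and arterial-like cells 0.38 (-0.28 to 1.05), on the other side of 0. In the same split the G2/M-like sub-cluster led by Hist1h1b gave -0.59 (-0.84 to -0.33). The one with Mcm5, Mcm3 and Hells gave -0.30 (-0.83 to 0.25). The median gene had a ratio of -0.17 in G2/M-like cells, -0.078 in the Slc6a6 and Apod cells, -0.083 in tip-like cells and -0.0010 in barrier capillary-like cells.

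Piezo2 did not move one way. Its ratio was 0.26 (-0.028 to 0.55) in tip-like cells, -0.17 (-0.31 to -0.035) in G2/M-like cells, 0.96 (0.50 to 1.45) in the Slc6a6 and Apod cells and -0.50 (-0.85 to -0.17) in barrier capillary-like cells. The last 2 values depend on how finely the cells are split, and the tip-like value also pools unlike mixes of cells. Of the Slc6a6 and Apod cells, 25 of 256 in Alk1 ECKO and 20 of 24 in control fell in the arterial-like sub-cluster of the finer split, where the Piezo2 ratio was 0.36 (-0.64 to 1.36), and 230 of the 256 Alk1 ECKO cells fell in one with Piezo2 at 129 CPM. Of the barrier capillary-like cells, 30 of 57 in Alk1 ECKO and 150 of 171 in control stayed barrier capillary-like, with Piezo2 at 137 CPM in Alk1 ECKO and 112 CPM in control, a ratio of 0.30 (-0.072 to 0.65). Another 23 in Alk1 ECKO and 17 in control formed a sub-cluster led by Aqp1 and Six3, with Piezo2 at 16.3 CPM (9 UMIs) in Alk1 ECKO and 75.1 CPM (33 UMIs) in control. The 9 UMIs lay in 6 cells and the 33 in 4 cells, with up to 12 in 1 cell. This control group is below the limit of 20 cells, so the 2 levels are not compared. Each of the 2 larger genotype differences in Piezo2 thus stood beside a different mix of finer sub-clusters in Alk1 ECKO than in control. Of the tip-like cells, 35 of 199 in Alk1 ECKO and 20 of 25 in control fell in the sub-cluster with Mcm5, Mcm3 and Hells. There the Piezo2 ratio was -0.38 (-0.73 to -0.023), and -0.34 (-0.69 to 0.020) relative to its median gene. The finer G2/M-like sub-cluster led by Hist1h1b gave -0.25 (-0.42 to -0.089), and -0.095 (-0.26 to 0.069) relative to its median gene.

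Counts per cell were low, with a long upper tail for Piezo2. At the depth deposited, Piezo1 UMIs were found in 51.0% of the endothelial cells of Alk1 ECKO and in 62.0% of those of control, and Piezo2 UMIs in 57.9% of the Alk1 ECKO and 62.3% of the control cells, at a median depth of 16071 UMIs in Alk1 ECKO and 19370 in control. Piezo1 averaged 1.48 UMIs per cell in Alk1 ECKO and 2.21 in control, with a largest count of 14 in Alk1 ECKO and 16 in control. Piezo2 averaged 3.70 UMIs per cell in Alk1 ECKO and 3.95 in control, with a largest count of 53 in each library. More than 10 Piezo2 UMIs were found in 135 of the 1271 Alk1 ECKO and 32 of the 313 control cells, whereas 9 Alk1 ECKO and 13 control cells had more than 10 of Piezo1.

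**Figure D4:**
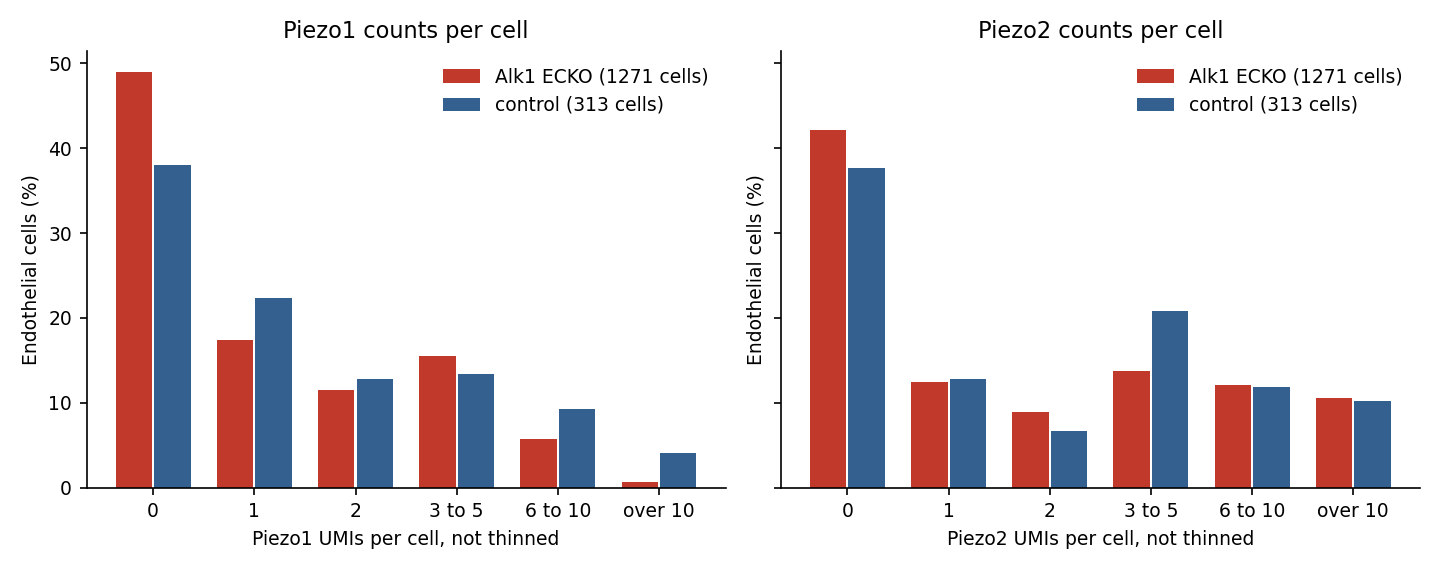
Share of endothelial cells with a given number of Piezo1 (left) and Piezo2 (right) UMIs, without thinning, in Alk1 ECKO (red, 1271 cells) and control (blue, 313 cells). The upper tail is longer for Piezo2, where 135 Alk1 ECKO and 32 control cells had more than 10 UMIs, than for Piezo1, where 9 Alk1 ECKO and 13 control cells did.

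Thinning every cell to 5000 UMIs set the libraries at one depth, leaving out 350 Alk1 ECKO and 25 control cells with fewer. Piezo1 was then found in 19.8% (17.2 to 22.5) of 921 Alk1 ECKO and 22.9% (18.2 to 28.2) of 288 control cells, and Piezo2 in 37.6% (34.4 to 40.8) of the Alk1 ECKO and 31.6% (26.3 to 37.3) of the control cells. These intervals overlap between libraries for each gene. At one depth the variance of Piezo1 counts was 1.13 times their mean in Alk1 ECKO and 1.02 times in control. Random sampling from equal cells gives 1, but at a mean as low as here unequal cells also give values near 1. The Piezo1 values therefore do not show that cells were equal. For Piezo2 the variance was 1.26 times the mean in Alk1 ECKO and 1.52 times in control. This quotient rises with the mean for the same relative spread, and Piezo2 had the higher mean, 0.544 UMIs per thinned cell in Alk1 ECKO and 0.483 in control, where Piezo1 had 0.233 in Alk1 ECKO and 0.267 in control, so the quotients of the 2 genes do not rank their spreads.

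Over all endothelial cells the 2 genes often shared a cell, and at equal depth about as often as the product of their single shares. Without thinning, 518 of 1271 Alk1 ECKO endothelial cells (40.8%) and 155 of 313 control cells (49.5%) had UMIs of both, where the product of the single shares is 29.5% in Alk1 ECKO and 38.6% in control. Piezo1 alone was found in 130 Alk1 ECKO and 39 control cells, Piezo2 alone in 218 Alk1 ECKO and 40 control cells, and neither in 405 Alk1 ECKO and 79 control cells. After thinning to 5000 UMIs, 70 of 921 Alk1 ECKO cells (7.60%, 5.97 to 9.51) and 22 of 288 control cells (7.64%, 4.85 to 11.3) had both, next to a product of 7.42% in Alk1 ECKO and 7.24% in control. Cells with a Piezo1 UMI then had a Piezo2 UMI in 38.5% of cases in Alk1 ECKO and 33.3% in control, and cells without one in 37.3% of cases in Alk1 ECKO and 31.1% in control. At 10000 UMIs per cell the shares with both were 21.9% in Alk1 ECKO and 27.9% in control, next to products of 23.0% in Alk1 ECKO and 26.2% in control. At each thinned depth the product lay within the interval of the share. Within sub-clusters the share at 5000 UMIs lay above the product in some, such as 10.4% next to 7.29% in control barrier capillary-like cells. It lay below in others, such as 6.05% next to 7.78% in the Alk1 ECKO Slc6a6 and Apod cells. In each sub-cluster with at least 20 cells of a library the product lay within the interval, and few cells had both.

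**Figure D5:**
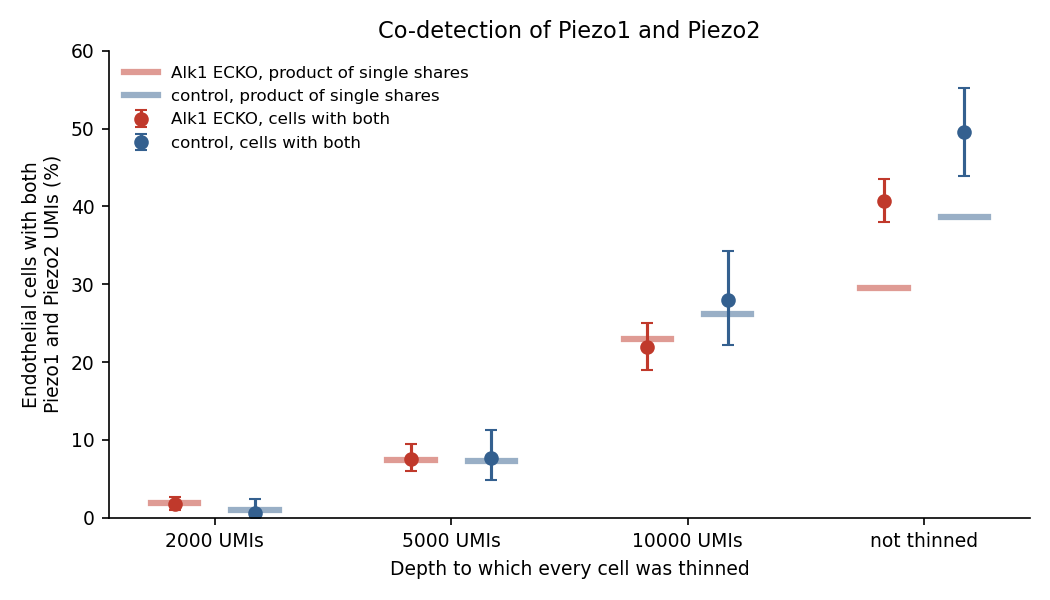
Share of endothelial cells with at least 1 UMI of both Piezo1 and Piezo2 (points, with exact 95% binomial intervals) and the product of the single-gene shares (bars), at 3 thinning depths and without thinning, Alk1 ECKO in red and control in blue. The bar lies outside the interval of its point without thinning, at 40.8% against 29.5% in Alk1 ECKO and 49.5% against 38.6% in control.

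Genes with the most similar pattern were ranked over 11 units, each 1 sub-cluster in 1 library with at least 20 cells, by Pearson's r of log2(CPM + 10) among 7661 genes. Units of a library share its depth and preparation, so these values are descriptions. Piezo1 was followed most closely by Mkln1 (r = 0.98), Hook3 (0.97), Nktr (0.97), Ubr4 (0.97) and Arl5b (0.97), and ran most against Dnajc19 (-0.96), Snhg6 (-0.96) and Mrpl58 (-0.95). Mkln1 encodes muskelin, a subunit of a ubiquitin ligase complex, Hook3 an adaptor of the motor dynein and Ubr4 a ubiquitin ligase, while Dnajc19 and Mrpl58 encode mitochondrial proteins. None of these is an endothelial marker listed here. Piezo2 was followed most closely by Itga4 (0.97), the integrin alpha 4 chain, Lamb1 (0.97), a laminin chain of the basement membrane, Gng2 (0.95), Kctd17 (0.94) and Pygb (0.93). It ran most against Emp3 (-0.94), Nfix (-0.94) and the arterial gene Mgp (-0.92). Piezo1 and Piezo2 had r = -0.13 with each other over these units.

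The same ranking was made over 17 units, each 1 cell class in 1 library. Among 10992 genes, Piezo1 was followed most closely by Arap3 (r = 0.99), Ecm1 (0.98), Vamp5 (0.98), Acvrl1 (0.97) and Def6 (0.97). For Piezo2 the closest were Adgrf5, Pcdh12, Adamts9, Tie1 and Rapgef3, with r between 0.99 and 1.0. The pair had r = 0.88 with each other.

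Known partners and regulators of Piezo channels formed a list of 17 genes, of which 16 were measured in endothelial cells. By the rule of 0.32 on the log2 scale 2 were higher and 6 lower in Alk1 ECKO, and the median log2 ratio was -0.28, near the -0.22 of all measured genes. The shares of all measured genes were 9.28% higher and 35.0% lower. Relative to that median, 4 were higher and 3 lower, where 21.1% of all genes were higher and 18.7% lower. The list's counts were thus near those of all genes. Tmem150c, whose product is reported to slow the inactivation of Piezo channels, stood at 5.26 CPM in Alk1 ECKO and 2.68 CPM in control, a ratio of 0.97. Cav1, the coat protein of caveolae, stood at 194 CPM in Alk1 ECKO and 146 CPM in control, a ratio of 0.41. Mdfi, a MyoD-family inhibitor that binds Piezo channels as an auxiliary subunit, stood at 28.7 CPM in Alk1 ECKO and 23.3 CPM in control, and its relative Mdfic at 14.6 CPM in Alk1 ECKO and 16.3 CPM in control. Tmem120a, reported to inhibit PIEZO2, was the remaining gene at 0.32 or more above the median gene, at 25.5 CPM in Alk1 ECKO and 21.5 CPM in control. At the other end, Stom, a membrane scaffold protein of the stomatin family, stood at 3.77 CPM in Alk1 ECKO and 10.0 CPM in control, a ratio of -1.41 (-1.79 to -1.04). Atp2b4, a plasma membrane calcium pump, stood at 10.5 CPM in Alk1 ECKO and 17.1 CPM in control, and Pkd2, a polycystin channel, at 21.6 CPM in Alk1 ECKO and 35.1 CPM in control, each with a ratio of -0.70. The adhesion genes Pecam1 and Cdh5, whose products sit with PIEZO1 at cell contacts, had ratios of -0.27 and -0.29, near the median gene.

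Genes placed downstream of PIEZO1 in calcium and flow responses numbered 32, and 28 were measured. By the same rule 4 were higher and 6 lower, with a median of -0.075, where 9.28% of all measured genes were higher and 35.0% lower. Relative to the median gene 10 were higher and 3 lower, where 21.1% of all genes were higher and 18.7% lower. Adm, the vasodilator adrenomedullin and also a tip cell gene, stood at 127 CPM in Alk1 ECKO and 27.6 CPM in control, a ratio of 2.20 (2.03 to 2.38). Klf2, a transcription factor induced by flow, stood at 485 CPM in Alk1 ECKO and 235 CPM in control, a ratio of 1.04 (0.98 to 1.10). Ccn2, a target of YAP and TAZ, stood at 78.8 CPM in Alk1 ECKO and 43.2 CPM in control, a ratio of 0.87. Klf4, another flow-induced factor, stood at 131 CPM in Alk1 ECKO and 91.5 CPM in control, a ratio of 0.51. The lowest were Yap1 at 22.4 CPM in Alk1 ECKO and 36.6 CPM in control (-0.71), the calcium-regulated factor Nfatc3 at 19.6 CPM in Alk1 ECKO and 30.3 CPM in control (-0.63), and Adam10, a protease that cleaves Notch1, at 161 CPM in Alk1 ECKO and 244 CPM in control (-0.60). Nos3, the endothelial nitric oxide synthase, stood at 69.6 CPM in Alk1 ECKO and 78.5 CPM in control, a ratio of -0.17. The list thus held genes on either side of the median gene. List ratios pool all endothelial cells, and the part of the unlike sub-cluster makeup of the libraries in them was not tested.

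Other stretch-gated channels were less often measurable. Of the 13 listed, 12 are in the files by the symbol used and 6 were measured, with 1 higher and 2 lower by the same rule, a median of -0.20, and 1 on each side relative to the median gene. These are too few to set against the 9.28% higher and 35.0% lower of all measured genes. Lrrc8a, a subunit of the volume-regulated anion channel, stood at 55.2 CPM in Alk1 ECKO and 37.8 CPM in control, a ratio of 0.54 (0.39 to 0.70). Trpm7, a channel fused to a kinase, stood at 39.9 CPM in Alk1 ECKO and 68.9 CPM in control, a ratio of -0.79 (-0.92 to -0.66). Of the TMEM63 channels, Tmem63a had a ratio of -0.34 and Tmem63b one of -0.25. Trpc6 stood at 3.79 CPM in Alk1 ECKO and 4.20 CPM in control, and the potassium channel Kcnj2 at 45.6 CPM in Alk1 ECKO and 46.3 CPM in control.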

How the data were processed

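The values are raw UMI counts per gene and barcode as the authors deposited them, from the 10x Genomics 3′ kit version 3.1 per the labels' protocols. The writing program was Cell Ranger 5.0.1 per the file headers; the submitters' processing notes list mm10, FastQC 0.11.9 and Cell Ranger 6.1.1. Intronic counting is not stated. Retained cells had a minimum of 1000 UMIs and 500 genes and a maximum of 10% mitochondrial UMIs (4237 Alk1 ECKO and 7909 control cells passed). By its own threshold Scrublet in scanpy 1.11.5 marked 1 Alk1 ECKO and 0 control cells as doublets. The top scores were therefore dropped at 0.8% per 1000 cells, 144 in Alk1 ECKO and 500 in control.

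The libraries were clustered jointly with no batch correction, using 3000 variable genes, 30 components and 15 neighbours (scikit-learn 1.9.0, leidenalg 0.10.2), at resolution 1 for all cells and 0.6 for endothelial cells. Piezo1 and Piezo2 took no part in the clustering. A marker list named a cluster when 3 or more of its genes were in that cluster's top 20. Set aside were clusters whose mitochondrial share had a median below 1%, whose doublet score had a median above 0.12, or whose top 10 genes included 2 or more markers of a different class. Candidate endothelial clusters, with at least 9 of 12 markers 4-fold above the median of the others, were ranked against the remaining clusters, and those rich in most markers of another list were set aside. Naming rules followed a first look at the clusters, and a difference from the study's own cell types may come from the rebuilt names.

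UMIs were summed per class and library as CPM. The 95% intervals are exact: Poisson for levels, conditional binomial for ratios, Clopper-Pearson for shares. Measured genes had at least 30 UMIs over both endothelial sums. Cells were thinned to 5000 UMIs by a seeded random draw. Calculations were tested on simulated counts. The genes most like each Piezo gene are the 5 highest and 3 lowest in r among genes of at least 20 CPM in 1 unit and 50 UMIs over all, leaving out haemoglobin, ribosomal, mitochondrial, predicted and sex-linked genes; over classes, the 5 highest. Of each list the 3 highest and 3 lowest ratios are named. Outside this rule, Acvrl1, Cldn5, Mdfic, Tmem120a, Pecam1, Cdh5, Klf4 and Nos3 were picked with their values known. Both Piezo genes and the lists were chosen with earlier results of these data known.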

Additional observations from a re-analysis of the deposited data

Results flagged for a closer look

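The Piezo2 ratio between genotypes had opposite signs in different endothelial sub-clusters, each interval excluding 0. The Alk1 ECKO over control log2 ratio was 0.96 (0.50 to 1.45) in the Slc6a6 and Apod cells, -0.17 (-0.31 to -0.035) in G2/M-like cells and -0.50 (-0.85 to -0.17) in barrier capillary-like cells. Relative to the median gene of its sub-cluster the G2/M-like value was -0.0047 (-0.14 to 0.13). In the finer split barrier capillary-like cells gave 0.30 (-0.072 to 0.65) and arterial-like cells, which hold 20 of the 24 control Slc6a6 and Apod cells, gave 0.36 (-0.64 to 1.36). The finer G2/M-like sub-cluster led by Hist1h1b gave -0.25 (-0.42 to -0.089), and the one with Mcm5, Mcm3 and Hells -0.38 (-0.73 to -0.023). The difference between these ratios was not tested, since each genotype had 1 library. Piezo1 and Piezo2 were also detected outside the cells compared, in the 1245 Alk1 ECKO barcodes with endothelial transcripts but few mitochondrial ones, at 11.3 CPM (7.94 to 15.5) for Piezo1 and 15.5 CPM (11.6 to 20.4) for Piezo2. The 3 control barcodes of that kind held 0 UMIs of either gene among 3572 UMIs. These Alk1 ECKO barcodes held 8.27 Piezo1 and 11.4 Piezo2 UMIs per 1000 Cldn5 UMIs, where endothelial cells of Alk1 ECKO had 22.4 of Piezo1 and 56.1 of Piezo2, and 0 of the 1245 had both genes. Each of their clusters also had 9 microglia or macrophage markers and 4 or 5 mural markers at least 4-fold above the median of the other clusters. The haemoglobin gene Hbb-bs was among their top genes, so they hold mixed RNA, and its part in their Piezo levels was not tested.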

How the results depend on the processing

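No paired analysis was possible because each genotype had 1 library with no replicate number, and for the same reason no replicate could be left out. Of the ratios over all endothelial cells, none whose interval excluded 0 changed direction under the alternatives run. By sub-cluster, the barrier capillary-like Piezo2 ratio of -0.50 became 0.30 in the finer split. The Piezo1 log2 ratio stayed between -0.52 and -0.37 under other cell filters, doublet rates and choices of endothelial cells, and stood at -0.18 as a mean of single-cell CPM, -0.21 relative to the median gene and -0.17 with edgeR's TMM factors (edgeR 4.0.16). The Piezo2 log2 ratio stood at 0.29 without cycling sub-clusters, -0.044 with the low-mitochondrial clusters counted as endothelial, 0.28 relative to the median gene and 0.32 with TMM factors. Without cycling sub-clusters the log2 of Piezo2 over Piezo1 UMIs in control cells was 0.60, against 0.84 with them. The share of cells with both genes was 1.72% in Alk1 ECKO and 0.660% in control at 2000 UMIs per cell, 21.9% in Alk1 ECKO and 27.9% in control at 10000 UMIs, and 40.8% in Alk1 ECKO and 49.5% in control without thinning. A minimum of 5000 UMIs leaves the thinned share as it is by construction. In the finer split the log2 of highest over lowest Piezo2 level was 3.51 in Alk1 ECKO, against 2.37, and 2.05 in control, against 1.18. Leaving out the Rgs5 sub-cluster, or counting the mixed endothelial and mural cluster, was chosen after seeing the data and moved none of these values beyond its interval. Rod and other neural levels rest on 0 to 5 UMIs per class, and the 11 control mural cells limit any comparison there.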
